A study of Homo sapiens with 45 samples.

Results

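The 7 d arm of palbociclib treatment in SK-N-BE(2)C cells was compared with its control. It holds 5 control libraries and 5 libraries of cells kept in 1 μM palbociclib (PB) for 7 days, 10 of the 45 libraries in the series. SK-N-BE(2)C is an established human neuroblastoma line of the adrenergic (ADRN) type, with amplified MYCN and loss of chromosome arm 1p, so every group shares these lesions. All libraries whose labels name this line and these treatments were taken. The same line after 24 h of PB (5 libraries) and the 5 d arms of IMR-32 and SH-SY5Y (5 libraries a group, each with its own controls) were used only where stated. The controls date from the 24 h point, and no 7 d control was compared. PB and the longer culture at 7 d therefore cannot be told apart.

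PB is an inhibitor of CDK4 and CDK6, the kinases that bind D-type cyclins and phosphorylate the retinoblastoma protein RB. Unphosphorylated RB holds E2F transcription factors, which drive the genes of DNA replication, and keeps cells in G1. Sympathetic neuroblasts, the cells from which neuroblastoma arises, leave the cell cycle as they mature into neurons that make noradrenaline and pack it, with granins, into dense-core vesicles. The comparison asks which of these and other genes differ in level after 7 days with the inhibitor.

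Reads were counted per gene. The 10 libraries held 13459219 to 23790619 counts. Levels are given as CPM, counts scaled to a common library size with edgeR's TMM factors, and compare a gene between libraries, not genes with each other, since CPM takes no account of gene length. Each replicate came from its own experiment and cell passage. Over the log2 CPM of all 15 libraries of the line, the first component (58.6% of the variance) set the groups apart (plot of the libraries on components 1 and 2). Controls lay at −54.9 to −49.8 and 24 h libraries at −14.3 to −0.7. At 7 d the values were 35.3, 71.8, 74.1, 53.6 and 57.5 in replicates 1 to 5, so replicate 1 stood apart on the side of the controls and the 7 d group was the most spread. Pearson correlations of log2 CPM between replicates were 0.960 to 0.993 at 7 d, against 0.986 to 0.994 among controls. Replicates 1 and 2 also lay apart from 3, 4 and 5 on the third component among controls (12.1 and 14.3 against −20.8 to −19.1) and at 24 h (26.6 and 27.3 against −9.0 to −7.1), and at 7 d they were at 36.3 and 2.9 against −25.4 to −3.2. No label names a batch, so results were also computed without each control and 7 d library and within each of these sets of replicates.

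**Figure D1:**
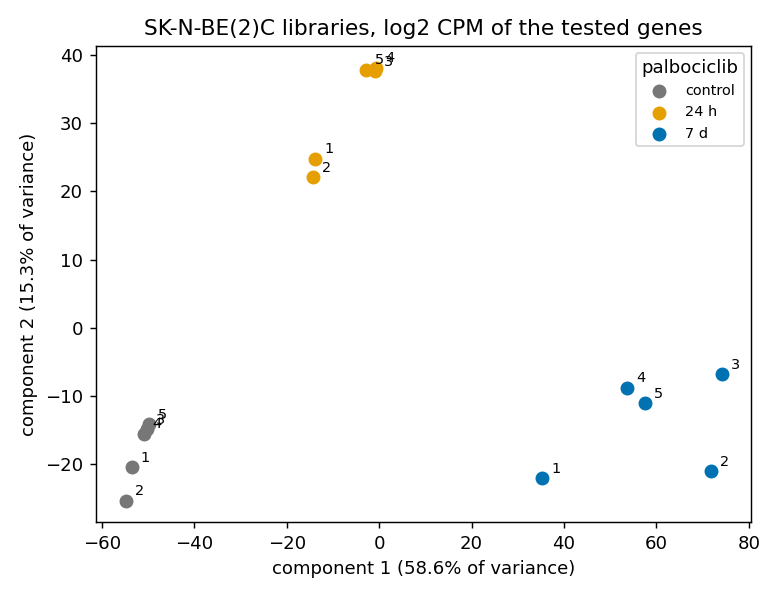
Each point is 1 SK-N-BE(2)C library on the first (x) and second (y) principal components of log2 CPM, numbered by replicate and coloured by group. The 3 groups are separate; 7 d replicate 1 is the 7 d library nearest the others on component 1, at 35.3.

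The line's identity was checked with marker lists. Summed CPM of 15 sympathetic neuroblast markers was 9265–11310 in controls and 12520–16970 at 7 d. Lists of other cell types were low: Schwann cell and glia 50.8–64.8 and 48.5–128, epithelium 11.3–14.2 and 12.5–15.7, blood 3.55–5.62 and 1.54–2.45, endothelium 0.164–0.809 and 0.511–1.87 CPM. PTPRC, PECAM1, CDH5, CDH1 and KRT5, which define these types, did not reach the count filter. The fibroblast list stood at 724–862 in controls and 792–1151 at 7 d, with 8 of 10 markers tested, 4 higher and 2 lower. COL1A2 and FAP did not reach the filter and COL1A1 fell by 1.34 on the log2 scale, while DCN, a small proteoglycan, rose from 32.3–37.8 to 63.6–119 CPM. Of the neuroblast markers 4 were higher and 2 lower; of the glial markers tested 2 of 6 were higher and 2 lower, of the epithelial markers 1 and 1 of 5, of the blood markers 0 and 2 of 2, and of the endothelial markers 0 and 0 of 1. EPCAM rose from a mean of 0.135 to 2.08 CPM, NGFR rose (1.11 ± 0.46), and PMP22 (−1.23 ± 0.15), ERBB3 (−0.79 ± 0.27), ACTA2 (−1.10 ± 0.25), CLDN4 (−0.74 ± 0.25), CD14 (−1.48 ± 0.35) and CD68 (−1.11 ± 0.28) fell. The part of other cell types in the results on matrix genes was not tested.

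In 14055 genes with enough counts, edgeR's quasi-likelihood test called 6572 (46.8%) at 7 d, where p after Benjamini-Hochberg adjustment was under 0.05 and the fold change passed 0.5 on the log2 scale. These were 3437 genes (24.5%) higher and 3135 (22.3%) lower, and the median log2 fold change of all genes tested was 0.012. With so many genes called, the counts of each gene list below are read against 24.5% higher and 22.3% lower. Against 24 h, 2465 genes (17.5%) were higher at 7 d and 2023 (14.4%) lower. Fold changes are on the log2 scale, ± standard error (SE), and a range written with a dash runs from the lowest to the highest of the 5 libraries. A gene is said to rise or fall only where it was called.

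The kinases that PB targets, their partner cyclin and RB were examined first. Of 7 tested G1 cyclins, CDK4, CDK6 and RB family genes 1 rose and 2 fell. CCND1, a D-type cyclin, rose by 1.24 ± 0.071 (adjusted p 3.9e-10), and CDK4 fell by 0.56 on the log2 scale (SE 0.065, adjusted p 1.0e-06). CCND1 was at 1530, 1609, 1883, 1896 and 1923 CPM in control replicates 1 to 5 and at 3788, 4462, 4217, 4234 and 4167 at 7 d. At 24 h it had reached 2666–3020, and it rose further by 0.53 from 24 h to 7 d, so that the 3 groups do not overlap. CDK4 went from 363, 376, 388, 392 and 383 CPM to 277, 211, 246, 277 and 279, again with no overlap. CDK6 was not called (−0.16 ± 0.19, adjusted p 0.46); its 7 d values of 189–371 CPM overlap the 234–367 of the controls. RB1 was at 147–178 CPM in controls, 93.3–119 at 24 h and 115–155 at 7 d, a log2 change of −0.27 ± 0.091 that does not reach the fold limit. Its relative RBL1 (p107), which is itself made mainly in cycling cells, fell from 41.7–53.8 to 8.16–13.7 CPM (−2.16 ± 0.13).

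Among 6 tested inhibitors of CDKs, 0 rose and 2 fell. CDKN2C (p18), which binds CDK4 and CDK6, was at 62.1, 71.7, 71.98, 80.7 and 73.0 CPM in controls and 12.5, 9.90, 8.60, 13.1 and 11.6 at 7 d, a called fall (−2.69 ± 0.12, adjusted p 4.5e-11). CDKN2A, the p16 and ARF locus, went from 33.9–45.2 to 22.3–29.3 CPM (−0.70 ± 0.10). CDKN1A (p21), named here after its values were seen, was at 13.4, 13.1, 7.03, 5.97 and 6.84 CPM in controls and 28.7, 8.90, 4.03, 5.45 and 6.04 at 7 d, where replicate 1 is the highest and the others lie within or below the controls, and was not called (0.17 ± 0.49, adjusted p 0.77). Without 7 d replicate 1 the median of this list moved from −0.10 to −0.49.

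Of 10 E2F and DP genes, 5 fell and 1 rose. E2F7, an atypical E2F that represses E2F targets, had the deepest fall of all named genes, from 30.8, 38.6, 35.4, 30.7 and 31.8 CPM in controls to 2.11, 0.0526, 0.208, 1.67 and 0.979 at 7 d (−5.14 ± 0.58, adjusted p 1.5e-06). E2F8, the other atypical member, fell from 16.4–17.8 to 0.0415–1.47 CPM (−4.58 ± 0.48), and the activator E2F2 from 53.9–67.3 to 0.831–16.9 (−3.26 ± 0.56). All 3 are highest at 7 d in replicate 1 and lowest in replicates 2 and 3. The activator E2F1 (−1.37 ± 0.20) and the dimer partner TFDP1 (−0.74 ± 0.086), named after their values were seen, are the other called falls. TFDP2, also a dimer partner of E2Fs, rose from 66.3–73.7 to 139.6–169 CPM (1.09 ± 0.064).

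Genes of cell division fell as a block. All 60 tested mitosis and kinetochore genes were called lower, with a median of −1.85, as were 43 of 47 DNA replication genes (−1.38). So were 9 of 10 E, A and B cyclins with their kinases and CDC25 phosphatases (−2.18). Falls were also called in 21 of 27 genes of homologous recombination and Fanconi repair (−1.26) and 19 of 23 genes of nucleotide supply (−0.92). None of the tested genes of these 5 lists was called higher. Among MYB, FOXM1 and the MuvB complex, which drive the late cell cycle genes, 4 of 9 fell and 0 rose. In RNA of whole cultures, fewer cycling cells and less of a transcript per cell cannot be told apart.

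MKI67, the proliferation marker Ki-67, was at 642, 838, 773, 712 and 705 CPM in control replicates 1 to 5 and at 148, 25.9, 12.1, 85.5 and 82.0 at 7 d (−3.38 ± 0.52, adjusted p 3.6e-05). At 24 h it had been at 57.4, 48.6, 25.0, 24.4 and 24.3. Thus 7 d replicates 1, 4 and 5 held more MKI67 than any 24 h library and replicate 3 held less, while every 7 d library lay below every control. RRM2, the small subunit of ribonucleotide reductase, showed the same order, 97.5, 11.7, 8.27, 68.5 and 51.9 CPM at 7 d against 16.8–48.5 at 24 h and 413–458 in controls (−3.20 ± 0.57). CCNA2, the S and G2 phase cyclin, went from 211–222 CPM to 41.2, 9.74, 6.65, 27.1 and 23.8 (−3.34 ± 0.39), CCNE2, a partner of CDK2, from 30.3–41.5 to 6.07, 1.05, 0.997, 4.89 and 3.43 (−3.45 ± 0.48), and the mitotic kinase AURKB from 74.8–93.3 to 15.4, 3.37, 2.45, 8.34 and 8.16 (−3.48 ± 0.37). In each of these genes replicate 1 is the highest 7 d library, replicates 4 and 5 follow, and replicates 2 and 3 are the lowest.

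Whole lists also had their highest 7 d sums in replicates 1, 4 and 5. Summed CPM of the mitosis list was 9884, 10260, 9791, 9615 and 9642 in controls, 2459, 2568, 1965, 1940 and 1961 at 24 h and 3602, 2039, 1749, 2856 and 2632 at 7 d. For DNA replication the sums were 6431–6548, 2307–2911 and, at 7 d, 3070, 2096, 2307, 2891 and 2635. The 7 d values of both lists surround those of 24 h, and all stay far below the controls. From 24 h to 7 d, 13 of 60 mitosis genes rose and 0 fell (all genes tested, 17.5% and 14.4%), with a median of 0.31; KIF20A, a kinesin of cytokinesis, rose from 3.48–7.34 to 4.53–30.9 CPM (1.65, adjusted p 0.0032). FOXM1 rose likewise, from 34.2–61.0 to 38.1–122.8 CPM (0.88). Of the replication genes 2 rose and 5 fell over the same span, and of nucleotide supply 1 rose and 9 fell, a median of −0.39.

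**Figure D2:**
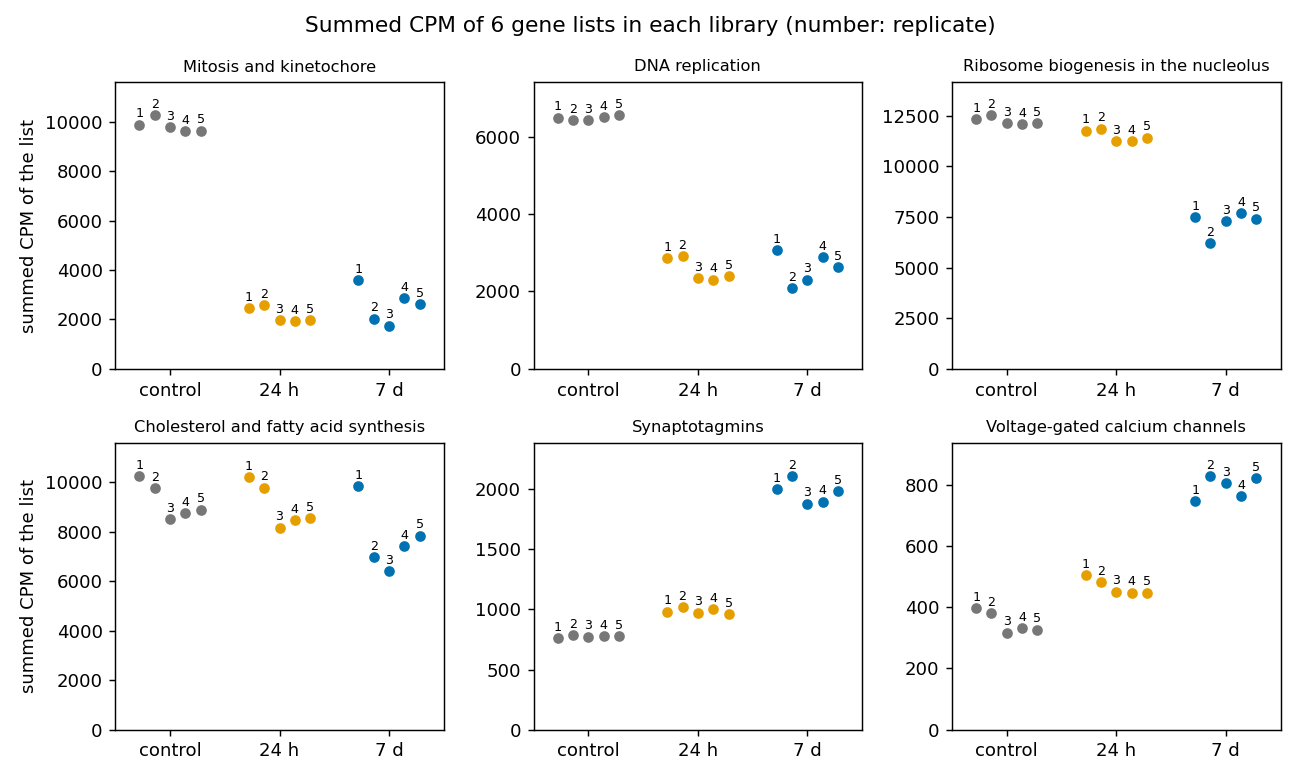
Summed CPM (y) of 6 gene lists in each library of control, 24 h and 7 d (x), numbered by replicate. Mitosis sums at 7 d run from 1749 (replicate 3) to 3602 (replicate 1) around the 24 h values, ribosome biogenesis falls after 24 h, and the synaptotagmin and calcium channel lists rise.

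Other deep falls of these lists, by the rule for naming genes, were CLSPN (−3.26 ± 0.39), a mediator of the replication checkpoint, CHAF1B (−3.21 ± 0.40), a subunit of chromatin assembly factor, and ORC1 (−2.71 ± 0.37), of the origin recognition complex. The kinase CDK2 also fell (−2.97 ± 0.34). Among repair genes BRIP1 (−2.09 ± 0.26) and RAD51AP1 (−1.99 ± 0.17) fell. Thymidylate synthase TYMS (−2.89 ± 0.39) and thymidine kinase TK1 (−2.48 ± 0.45) led the falls of nucleotide supply beside RRM2. MYBL2, the B-MYB subunit that joins MuvB, went from 353–484 CPM to 129, 25.2, 13.9, 70.5 and 56.6 (−2.80 ± 0.49), FOXM1 fell by 2.40 ± 0.25, and MYB, already low in controls (2.63–3.45 CPM), fell by 3.93 ± 0.54.

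Promoters of the replication and mitosis genes carry different motifs, printed here because both lists fell and are known E2F and DREAM targets. RefSeq promoters (GRCh38.p14, 250 bases before to 50 after a start) matched 10636 of the 14055 genes. They were searched on both strands for E2F sites (TTTCCCGC, TTTGGCGC or TTTCGCGC) and for the cell cycle homology region, CHR (TTTGAA or TTTAAA, the latter its own complement); E2F matches can overlap each other but not the CHR letters. A gene was counted where any of its promoters held the letters. An E2F site was found in 20 of 41 replication genes with a promoter (48.8%), 4 of 51 mitosis genes (7.84%) and 5.59% of all genes with a promoter. CHR letters were found in 2 of 41 replication genes (4.88%), 41 of 51 mitosis genes (80.4%) and 20.9% of all. The list of E, A and B cyclins had E2F sites in 2 of 8 genes and CHR letters in 6. Repair genes had them in 4 and 6 of 24, and nucleotide supply genes in 4 and 5 of 20. Of the 15 deepest falls 10 had a promoter, and each motif was found in 1 of these. Over all called genes with a promoter, E2F sites were found for 8.39% of those that fell and 3.07% of those that rose, and CHR letters for 24.3% and 21.8%. The synaptotagmin list (0 of 11 with an E2F site, 2 with CHR letters) and nucleolar ribosome biogenesis (3 and 11 of 59) were near all genes with a promoter. A match is a description of the letters, not of binding. The windows are 60 bases long and lie upstream of the start, in the first promoter listed for a gene. They show the 6 deepest falls of each list with a match there, chosen after their values were seen. Bases run 5′ to 3′ on the gene's strand, with matches in capitals. The replication genes with E2F sites were these.
PCNA (chr20:5126648-5126707, minus strand): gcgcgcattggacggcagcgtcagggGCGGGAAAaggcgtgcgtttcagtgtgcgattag
GINS2 (chr16:85688955-85689014, minus strand): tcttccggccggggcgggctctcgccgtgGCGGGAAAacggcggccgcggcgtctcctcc
CDT1 (chr16:88803728-88803787, plus strand): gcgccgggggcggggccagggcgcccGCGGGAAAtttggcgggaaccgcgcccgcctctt
MCM6 (chr2:135876496-135876555, minus strand): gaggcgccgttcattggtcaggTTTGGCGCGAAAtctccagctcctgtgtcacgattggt
LIG1 (chr19:48170425-48170484, minus strand): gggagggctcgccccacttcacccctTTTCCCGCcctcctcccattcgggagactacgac
POLA2 (chr11:65261883-65261942, plus strand): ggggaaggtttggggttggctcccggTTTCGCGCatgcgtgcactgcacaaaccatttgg
The mitosis genes with CHR letters were these.
MKI67 (chr10:128126424-128126483, minus strand): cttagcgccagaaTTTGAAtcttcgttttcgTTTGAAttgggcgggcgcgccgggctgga
KIF20A (chr5:138179044-138179103, plus strand): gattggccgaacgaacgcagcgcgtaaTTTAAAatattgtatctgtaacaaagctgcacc
HMMR (chr5:163460572-163460631, plus strand): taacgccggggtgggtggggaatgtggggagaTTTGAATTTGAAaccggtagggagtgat
NUSAP1 (chr15:41332814-41332873, plus strand): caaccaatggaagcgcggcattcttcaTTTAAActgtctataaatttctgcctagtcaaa
CENPA (chr2:26785996-26786055, plus strand): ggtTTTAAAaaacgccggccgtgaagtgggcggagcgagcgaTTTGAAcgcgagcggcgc
PLK1 (chr16:23678829-23678888, plus strand): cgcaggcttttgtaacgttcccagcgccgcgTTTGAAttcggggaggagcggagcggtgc

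Of the genes behind these sequences, PCNA, the sliding clamp of replication, was at 338–373 CPM in controls, 43.1–81.2 at 24 h and 30.6–109 at 7 d (7 d against control −2.52 ± 0.31, against 24 h 0.10, adjusted p 0.79). MCM6, of the replicative helicase, went through means of 148, 51.3 and 35.0 CPM (against 24 h −0.56, adjusted p 0.015). PLK1, the mitotic kinase, was at 269–299, 18.7–35.3 and 14.2–76.6 CPM (against 24 h 0.54, adjusted p 0.21), and CENPA, the centromeric histone, at 41.3–55.9, 1.76–4.40 and 1.83–12.7 (0.94, adjusted p 0.067).

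Genes linked to FOXO factors and quiescence rose in 15 of 26 cases, with a median of 0.94. The 1 fall was in FOXO1 itself (−1.90). CCNG2, an unconventional cyclin of non-dividing cells, was at 9.93, 7.78, 10.6, 9.74 and 10.6 CPM in controls and 45.2, 68.1, 67.8, 60.9 and 60.7 at 7 d (2.64 ± 0.15). YPEL3 went from 4.76–8.38 to 19.8–51.1 CPM (2.42 ± 0.24) and PIK3IP1, a negative regulator of PI3 kinase, from 3.46–5.62 to 11.6–37.4 (2.31 ± 0.29). In all 3 genes replicate 1 is the lowest 7 d library, and it still lies above every control.

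Of 16 BCL2 family genes, 6 rose and 1 fell. The largest rise was BOK, from 1.39–3.72 to 28.0–43.2 CPM (3.72 ± 0.29), followed by HRK, a neuronal BH3 protein, from 0.607–1.92 to 6.77–12.1 (2.85 ± 0.27), and BBC3, from 2.02–5.04 to 16.8–26.2 CPM (2.65 ± 0.26). All 3 are known to promote cell death. BAK1 fell from 41.2–47.1 to 23.1–31.5 CPM (−0.68 ± 0.082). Senescence-associated secretory factors gave 5 rises and 6 falls among 15 tested, and 3 rises without 7 d replicate 3. IGFBP7 rose by 2.30 ± 0.28, and IGFBP5 stood at 40.9, 417, 883, 95.7 and 94.8 CPM in the 7 d replicates against 76.3–119.5 in controls, a called rise (1.58 ± 0.63, adjusted p 0.035) in which replicates 2 and 3 alone lie above the controls. IGFBP3 rose by 0.97 ± 0.32 with overlapping groups. PLAUR (−2.59 ± 0.41), LIF (−2.27 ± 0.40) and PLAU (−1.52 ± 0.21) fell.

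MYCN, the amplified driver of this line, had one of the largest losses of abundance. It was at 4537, 3437, 3371, 4017 and 3744 CPM in control replicates 1 to 5, 5130, 4427, 4457, 4616 and 5061 at 24 h and 2366, 1815, 2491, 2581 and 2425 at 7 d. The 7 d libraries lie below every control and every 24 h library (−0.71 ± 0.097 against control, adjusted p 5.7e-06; −1.02 against 24 h, adjusted p 3.1e-07). Of 12 genes of the MYC, MAX and MXD network, 3 rose and 2 fell. MXD1 (1.46 ± 0.089) and MXD4 (1.60 ± 0.13), which compete with MYC proteins for MAX, rose and MXD3 fell (−2.49 ± 0.21). MYC itself rose by 3.04 ± 0.47 from 0.0899–0.453 to 1.09–4.37 CPM.

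Among the 15 largest rises, ZCCHC12, a coactivator in BMP signalling, was at 0.0959, 0.0899, 0.708, 0.378 and 0.602 CPM in controls and 13.3, 37.5, 35.9, 30.9 and 31.8 at 7 d (6.34 ± 0.48, adjusted p 1.9e-08). NPTX1, a neuronal pentraxin that clusters AMPA receptors, went from 0.911, 1.26, 1.21, 0.831 and 1.42 CPM to 21.5, 124, 190.3, 40.7 and 45.5 (6.21 ± 0.61), with replicates 2 and 3 far above the others. CHRD, the BMP antagonist chordin, was at 0.192, 0, 0.506, 0.453 and 0.493 CPM in controls and 22.9, 48.8, 18.1, 7.06 and 8.49 at 7 d (6.05 ± 0.70), highest in replicate 2. NPTX1 and CHRD were still at 1.38–2.13 and 0.101–1.01 CPM at 24 h, so most of the rise came after. SHC2, an adaptor of receptor tyrosine kinases in neurons, was the most even of the 4, from 1.15, 1.39, 0.607, 0.831 and 1.15 CPM to 44.8, 57.3, 62.1, 56.2 and 55.2 (5.71 ± 0.18, adjusted p 1.0e-12).

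Other large rises were STMN4, a neuronal stathmin, from 2.65–3.93 to 48.6, 43.6, 63.4, 75.5 and 73.7 CPM (4.19 ± 0.18), PLPPR3, a membrane protein of axon branching, from 0.680–3.12 to 26.7–43.7 (4.50 ± 0.30), and RAB6B, the neuronal form of a Golgi GTPase, from 0.759–1.97 to 20.7–29.9 (4.29 ± 0.24). PIRT, a regulator of TRP channels in sensory neurons, was at 1.09, 8.21, 18.2, 9.67 and 9.63 CPM at 7 d against 0.0899–0.755 in controls (4.50 ± 0.67), lowest in replicate 1. TMEM59L (4.43 ± 0.22), OLFML2B (4.41 ± 0.38), the lysosomal iduronidase IDUA (4.15 ± 0.20), the sorting nexin SNX32 (4.02 ± 0.24) and the phospholipase PLA2G4C (4.01 ± 0.28) complete the set with CACNG7 and TP53INP1. TP53INP1, a stress protein of autophagy and cell death, went from 1.82, 1.98, 3.64, 3.47 and 3.67 CPM through 25.0–34.0 at 24 h to 53.5, 72.01, 70.1, 72.3 and 73.5 (4.57 ± 0.18, adjusted p 2.3e-11). The 15 were chosen among genes whose groups do not overlap. On GRCh37, the build of hg19, ZCCHC12 lies at X:117957787-117960931, NPTX1 at 17:78440634-78451643, CHRD at 3:184097842-184108524, SHC2 at 19:416589-461033 and MYCN at 2:16080672-16087129.

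The 15 deepest falls hold 9 genes beside the 6 cell cycle genes above. CSPG4 (NG2), a proteoglycan of progenitor cells, was at 41.4, 30.7, 53.8, 55.9 and 59.7 CPM in controls, 22.8–36.0 at 24 h and 3.58, 2.63, 3.70, 4.84 and 2.88 at 7 d (−3.77 ± 0.21, adjusted p 5.4e-10). HAS2, a hyaluronan synthase, went from 8.71–14.3 to 0.435–0.948 CPM (−3.95 ± 0.19), the receptor FLT4 (VEGFR3) from 4.86–6.91 to 0.291–0.639 (−3.74 ± 0.26) and NXPH2, a neurexophilin, from 7.20–9.59 to 0.125–0.639 (−4.86 ± 0.31). ITPR3, an IP3 receptor (−4.05 ± 0.52), and SLC8A1, the sodium and calcium exchanger (−3.38 ± 0.17), fell. In controls ITPR3 was at 16.4, 15.9, 5.36, 5.89 and 4.87 CPM, so replicates 1 and 2 differ from the rest, and the 7 d values of 0.381–0.894 lie below all of them. Metallothionein MT2A (−3.87 ± 0.32), carbonyl reductase CBR3 (−3.77 ± 0.34) and POGLUT3, which adds glucose to Notch-type repeats (−3.59 ± 0.26), complete the falls. AURKB lies at 17:8108051-8113918, E2F7 at 12:77415028-77459349, CSPG4 at 15:75966663-76005189 and MKI67 at 10:129894923-129924687 on GRCh37.

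**Figure D3:**
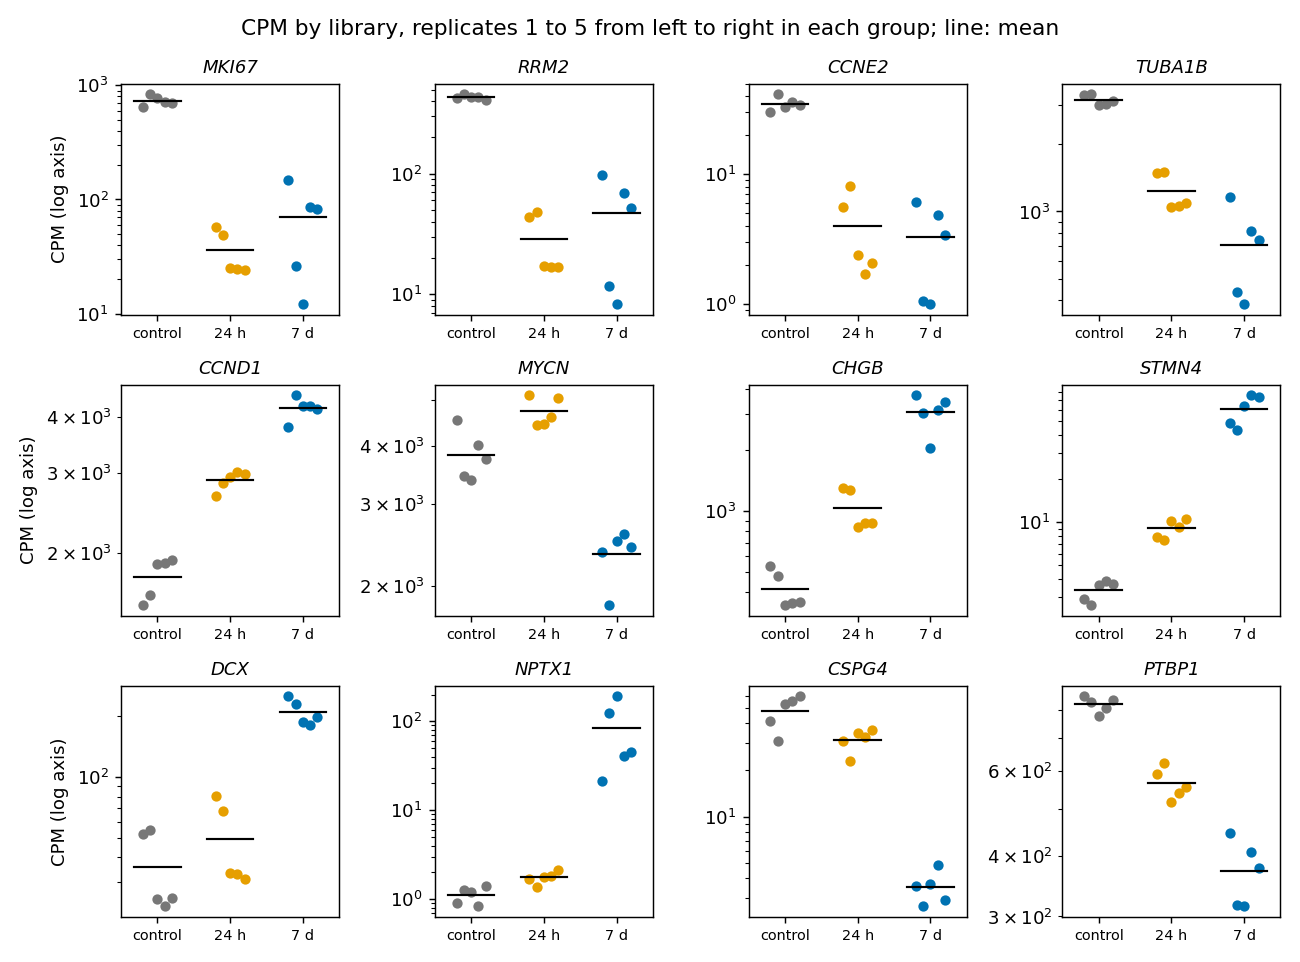
CPM (log axis) of 12 named genes in the 5 libraries of control, 24 h and 7 d, with replicates 1 to 5 from left to right in each group and the mean as a line. In all 12 genes the 7 d and control libraries do not overlap.

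Of 15 tubulin genes, 7 fell and 2 rose. TUBA1B, an abundant alpha tubulin, went from 3322, 3351, 3011, 3017 and 3113 CPM to 1158, 434, 385, 819.5 and 744 (−2.16 ± 0.25), TUBB4B from 588–651 to 94.6–256 (−1.91 ± 0.22) and TUBB6 from 108–115 to 29.0–56.2 (−1.47 ± 0.14). TUBB4A, a neural isotype, rose from 18.2–32.6 to 37.6–71.2 CPM (adjusted p 5.7e-06), and TUBA1C rose with overlapping groups (0.95 ± 0.28). TUBB3, the neuronal beta tubulin, was at 639, 604, 492, 534 and 526 CPM in controls and 737, 475, 562, 642 and 616 at 7 d and was not called (0.12 ± 0.11, adjusted p 0.36). Of 4 stathmins 2 rose and 1 fell. STMN1, the stathmin of dividing cells, fell by 1.03 ± 0.078, and STMN2, that of growth cones, rose from 527–615 to 1035–1268 CPM (1.08 ± 0.062).

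Neurofilaments, neuronal MAPs and CRMPs rose in 13 of 27 cases, with 1 fall and a median of 0.42. DCX, doublecortin of migrating neuroblasts, was at 52.2, 54.6, 24.7, 22.8 and 25.0 CPM in controls and 251, 229, 186, 181 and 199 at 7 d (2.54 ± 0.33). At 24 h it was at 80.2, 68.2, 33.2, 32.9 and 31.1, so most of its rise came after 24 h (2.09, adjusted p 6.1e-05). DPYSL4, a CRMP, rose by 2.21 ± 0.12 and MAPT, which encodes tau, from 16.9–29.3 to 90.9–119 CPM (2.19 ± 0.17). NEFH, the heavy neurofilament, fell by 0.89 ± 0.32 with overlapping groups. The light and medium neurofilaments NEFL (−0.49) and NEFM (−0.26) were not called, while the related INA (0.52) and PRPH (0.70) rose. Axonal kinesins and dyneins gave 10 rises and 3 falls among 27, led by the neuronal kinesins KIF5C (86.0–117 to 294–330.2 CPM, 1.67 ± 0.11) and KIF5A (1.58 ± 0.097) and by KIF3A (0.88 ± 0.069). KIF13A (−1.25 ± 0.26), KIF17 (−1.005 ± 0.42) and KIF1C (−0.72 ± 0.14) fell.

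Synaptotagmins, a family with calcium sensors of vesicle fusion, and synaptotagmin-like genes rose in 12 of 15 cases with 0 falls (median 1.39). The synaptotagmin-like SYTL2 (1.45) and SYTL3 (2.53) were among the rises, and SYTL5 (−0.15) was not called. Summed CPM of the whole list was 759, 786, 774, 779 and 775 in controls, 964–1020 at 24 h and 2001, 2109, 1880, 1897 and 1986 at 7 d. This sum spread little between replicates, and 12 of the 15 were also higher at 7 d than at 24 h. SYT5 led the abundant members, from 8.63, 5.57, 7.74, 6.95 and 10.0 CPM to 61.4, 76.9, 77.9, 74.5 and 70.6 (3.21 ± 0.14), and SYT17 (0.405–0.712 to 2.30–8.31 CPM, 3.11 ± 0.36) and SYT3 (2.87 ± 0.23) rose from means of 0.541 and 1.15 CPM. Within replicates 1 and 2 the list median was 0.91, and within replicates 3 to 5 it was 1.42.

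The machinery of vesicle release rose in 21 of 41 cases and fell in 2 (median 0.54), with summed CPM going from 3589–3868 to 5559–5780. NAPB, the neuronal SNAP that helps take SNARE complexes apart, was at 20.9, 19.5, 14.6, 14.96 and 17.4 CPM in controls and 91.8, 100.3, 93.0, 97.7 and 100.0 at 7 d (2.46 ± 0.093, adjusted p 8.6e-12). SYNGR3, a synaptic vesicle protein, rose from 1.11–4.03 to 13.2–25.4 CPM (3.16 ± 0.33). Falls were RPH3A (−0.85 ± 0.20) and VAMP1 (−1.12 ± 0.28).

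Dense-core vesicle cargo included some of the largest gains of abundance in the comparison. Of 19 granins, neuropeptides and processing enzymes 11 rose and 3 fell (median 0.92), and their summed CPM went from 6266, 5736, 5677, 6107 and 5742 in controls to 15140, 13500, 10560, 12730 and 13240 at 7 d. Chromogranin B, CHGB, was at 539, 478, 345, 354 and 358 CPM in controls and 3717, 3032, 2056, 3145 and 3439 at 7 d (2.89 ± 0.19), and CHGA went from 2112, 2104, 1750, 1892 and 1746 to 5199, 3721, 2967, 3795 and 3763 (1.02 ± 0.13). SCG2, secretogranin II, lay within the range of the controls at 24 h (810–953 CPM against 782–1001) and stood at 1955, 3131, 2816, 2098 and 2157 at 7 d (1.41 ± 0.12). CPE, the carboxypeptidase of peptide processing (3.47 ± 0.31), and UCN, urocortin (2.16 ± 0.28), rose to at most 3.20 CPM. NMB (−1.66 ± 0.17), NMU (−1.41 ± 0.47) and GAL, galanin (−0.55 ± 0.20), fell, the last 2 with overlapping groups.

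Transmitter genes moved less together. Catecholamine genes gave 4 rises and 2 falls among 14. The noradrenaline transporter SLC6A2 rose from 484, 502, 471, 473 and 473 CPM to 920.2, 719, 582, 958 and 928 (0.77 ± 0.11), the vesicular monoamine transporter SLC18A2 by 1.05 ± 0.16, and PNMT, which makes adrenaline, rose by 1.68 ± 0.34 to at most 4.47 CPM. MAOA (−0.74 ± 0.28, overlapping groups) and PTS (−0.73 ± 0.086) fell. Among 12 cholinergic genes 6 rose and 2 fell. ACHE, acetylcholinesterase, went from 0.831–1.52 to 9.79–14.6 CPM (3.26 ± 0.19), the nicotinic subunit CHRNA7 from 25.4–32.9 to 69.5–75.5 (1.31 ± 0.073), and SLC18A3, the vesicular acetylcholine transporter, from 51.8–78.5 through 29.3–49.4 at 24 h to 113–148 (1.02 ± 0.15). CHRM2 (−2.35 ± 0.25) and CHRNA5 (−1.12 ± 0.18) fell.

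Ion channels that passed the count filter rose more often than all genes tested. Here and in the other lists, a gene low in controls, as CACNA1G was, can pass the filter through treated libraries. Such a gene can hardly be called lower, and how far this shaped the counts was not tested. Voltage-gated calcium channels rose in 11 of 13 cases with 1 fall (median 1.17, with 0.81 within replicates 1 and 2 and 1.65 within 3 to 5). Sodium channels rose in 6 of 9 with 0 falls (0.97) and potassium channels in 17 of 44 with 5 falls (0.41). CACNA1B, the N-type channel of presynaptic release, was at 14.7, 11.7, 12.9, 14.4 and 16.5 CPM in controls, 40.4–48.6 at 24 h and 74.0, 96.9, 105.3, 79.5 and 92.4 at 7 d (2.68 ± 0.11). CACNG7, an auxiliary subunit of AMPA receptors and calcium channels, rose from 0.455–1.04 to 12.9–16.4 CPM (4.22 ± 0.20) and the T-type CACNA1G from 0.0755–0.528 to 1.03–4.05 (2.70 ± 0.45). Of the sodium channels SCN2A, of neuronal axons, went from 1.89–3.26 to 12.2–16.8 CPM (2.31 ± 0.15), SCN7A to 2.17–4.35 (3.87 ± 0.33) and SCN2B rose with overlapping groups (2.41 ± 0.45). KCNA2 (4.53 ± 0.37), KCNJ2 (3.65 ± 0.41) and KCNMB4 (3.52 ± 0.47) led the potassium channels, each from under 1 CPM on average, and KCNK10 (−1.60 ± 0.20), KCNH1 (−1.38 ± 0.34) and KCNAB3 (−1.36 ± 0.18) fell. Glutamate and GABA receptors were mixed, 6 higher and 5 lower of 20: GRIA1 (2.36 ± 0.38), GRIN1 (1.45 ± 0.14) and GRIK4 (1.97 ± 0.46) rose, and GRM2 (−2.46 ± 0.48), GABRA4 (−1.37 ± 0.11) and GRIK3 (−1.24 ± 0.20) fell.

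Synaptic adhesion molecules rose in 23 of 36 cases and fell in 4 (median 0.92); the falls were 2 without 7 d replicate 1 or without control replicate 3, 4 or 5. CADM2 was at 13.5, 17.4, 13.8, 13.8 and 11.7 CPM in controls and 72.8, 82.5, 79.9, 83.9 and 84.3 at 7 d (2.52 ± 0.092), with CNTN3 (3.26 ± 0.51) and CADM3 (3.10 ± 0.32) rising from under 1 CPM. CNTNAP2, a neurexin relative, went the other way, from 156, 179, 134, 129 and 133 CPM to 46.8, 16.5, 15.1, 16.3 and 14.4 (−2.76 ± 0.30), and SLITRK5 (−1.11 ± 0.11) and CNTN4 (−0.89 ± 0.36) fell too. Axon guidance genes were split, 22 higher and 15 lower of 57. SEMA3B (3.23 ± 0.32), SEMA6C (2.59 ± 0.21) and NTNG1 (2.22 ± 0.44) rose, while NRP2, the semaphorin and VEGF co-receptor, fell from 170.4, 144, 135, 140.5 and 130.4 CPM to 26.2, 24.3, 32.2, 34.2 and 27.4 (−2.32 ± 0.10), with SEMA3D (−1.92 ± 0.13) and EPHB4 (−1.87 ± 0.26). Cadherins and protocadherins gave 3 rises and 7 falls among 18: PCDH18 (−2.40 ± 0.085), PCDH7 (−2.24 ± 0.22) and CDH7 (−3.02 ± 0.56) fell and CDH2, N-cadherin, rose from 208–272 to 342–614 CPM (1.05 ± 0.14), with PCDHB15 (1.59 ± 0.16) and PCDH15 (1.14 ± 0.16).

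Neuronal splicing regulators rose in 10 of 24 cases and fell in 4. PTBP1, the repressor of neuronal exons that neurons switch off, was at 855, 834, 780.2, 809.8 and 839.5 CPM in controls, 518–623 at 24 h and 447, 317, 315, 408 and 378 at 7 d (−1.14 ± 0.087), with no overlap between the 3 groups. NOVA2 went from 23.6–42.9 to 107–131 CPM (1.96 ± 0.15), CELF4 from 14.02–18.9 to 48.8–63.2 (1.82 ± 0.11) and CELF5 to 1.41–2.62 (3.45 ± 0.47). QKI (−1.25 ± 0.091) and MBNL1 (−0.94 ± 0.060) fell. REST, the repressor of neuronal genes, was low in every library: 1.53, 2.38, 4.40, 3.70 and 4.599 CPM in controls and 0.447, 3.05, 3.03, 1.11 and 1.14 at 7 d, not called (−0.88 ± 0.45, adjusted p 0.093). Within replicates 3 to 5 it was called lower (−1.24), and it also passed without control replicate 1 (−1.07), 7 d replicate 2 (−1.16) or 7 d replicate 3 (−1.18), and with the replicate number as a block (−0.90).

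The adrenergic core regulatory circuit, the transcription factors that hold ADRN identity, had 2 rises and 4 falls among 16, and the median was 0.07. GATA2 rose from 833–1092 to 1381–1797 CPM (0.64 ± 0.082) and TFAP2B by 0.65 ± 0.16 with overlapping groups. SOX11 fell from 63.0–73.6 to 18.7–34.4 CPM (−1.26 ± 0.11) and TEAD4, at about 1 CPM, by 1.92 ± 0.42.

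Genes of the mesenchymal state fell in 10 of 21 cases and rose in 4, or in 2 without 7 d replicate 3 or 5. WWTR1 (TAZ) went from 4.03–5.47 to 0.667–2.37 CPM (−2.02 ± 0.29), SNAI2 from 4.61–14.7 to 0.830–4.49 (−1.95 ± 0.45) and NOTCH2 fell by 1.94 ± 0.42. Fibronectin, FN1, rose instead, from 32.04, 46.8, 37.1, 36.0 and 34.0 CPM to 63.4, 215, 148, 59.4 and 66.9 (1.57 ± 0.31), as did ZEB1 (104–115 to 202–286 CPM, 1.129 ± 0.081) and MAML2 (0.53 ± 0.13, overlapping groups). Other neurogenic factors gave 4 rises and 4 falls among 21: PROX1 (1.48 ± 0.18), MYT1 (1.41 ± 0.088) and SOX4 (1.004 ± 0.080) rose, and SOX2 (−3.79 ± 0.90), ATOH8 (−2.33 ± 0.70) and POU2F2 (−1.26 ± 0.25) fell.

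Among 13 genes of retinoid signalling 2 rose and 4 fell. CRABP1, which binds retinoic acid in the cytoplasm, was at 56.8, 40.8, 74.9, 73.5 and 76.6 CPM in controls, 35.1–62.8 at 24 h and 6.90, 3.90, 6.19, 10.7 and 9.25 at 7 d (−3.13 ± 0.26), so most of its fall came after 24 h. CRABP2 fell from 98.8–128 to 42.8–84.0 CPM (−0.87 ± 0.14) and the receptor RXRA by 0.79 ± 0.15. STRA6, a retinol transporter, rose from 276–362 to 515–626 CPM (0.79 ± 0.086).

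Signalling lists held changes in both directions. Of 24 receptor tyrosine kinases and neurotrophin receptors 9 rose and 6 fell (without 7 d replicate 3, 5 rose). ERBB2 (2.56 ± 0.29), PDGFRA (1.19 ± 0.48) and NTRK3 (1.15 ± 0.38) rose from means of at most 2.18 CPM, the last 2 with overlapping groups, and GFRA2, a GDNF family co-receptor, fell from 63.2, 53.3, 119, 123.3 and 127 CPM to 13.7, 16.2, 23.2, 28.0 and 22.5 (−2.22 ± 0.33), with FGFR2 (−1.29 ± 0.47). ALK, the kinase mutated in some neuroblastomas, went from 14.7, 19.6, 7.59, 6.80 and 6.51 to 5.62, 1.95, 2.16, 2.67 and 2.77 CPM (−1.89 ± 0.46). Among 13 genes of GD2 synthesis and surface targets, 5 rose and 2 fell. SSTR2, the somatostatin receptor, was at 18.3, 20.9, 29.8, 27.7 and 24.5 CPM in controls and 57.9, 131, 203, 94.8 and 89.4 at 7 d (2.25 ± 0.31), NCAM1 rose by 0.98 ± 0.048 and GPC2 by 0.96 ± 0.17, and B4GALNT1, the GD2 synthase, fell from 91.7–120.5 to 34.8–84.1 CPM (−0.84 ± 0.19). Of 25 BMP, SMAD and ID genes, 5 rose and 6 fell; TGFB1 (1.23 ± 0.078), ACVR2A (0.86 ± 0.17) and ACVR1 (0.79 ± 0.13) rose, and GREM1 (−1.62 ± 0.38), BAMBI (−1.27 ± 0.15) and TGFB3 (−1.22 ± 0.22) fell. Of 18 Notch pathway genes, 6 rose, led by DLK2 (1.70 ± 0.35), RFNG (1.17 ± 0.11) and NUMBL (0.89 ± 0.075), and 5 fell, led by NOTCH2, MAML1 (−0.83 ± 0.065) and HES6 (−0.79 ± 0.17).

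Immediate early genes rose in 9 of 21 cases and fell in 5. EGR1 was at 32.6, 29.0, 39.1, 35.4 and 34.1 CPM in controls, 24.5–39.2 at 24 h and 181, 138, 63.9, 127 and 151 at 7 d (1.96 ± 0.22), and EGR2 (3.36 ± 0.41) and EGR3 (2.37 ± 0.32) rose from under 1 CPM. ATF3 (−1.69 ± 0.16), NR4A2 (−0.97 ± 0.21) and IER5 (−0.88 ± 0.19) fell. Oncofetal RNA-binding and HMGA genes fell in 3 of 4 cases: LIN28B, the blocker of let-7, went from 168, 169.8, 148, 139 and 142 CPM to 94.6, 41.3, 39.8, 54.4 and 56.9 (−1.42 ± 0.20), IGF2BP1 from 193–255 to 58.2–138 (−1.319 ± 0.19) and HMGA1 from 531–649.8 to 234–346 (−0.98 ± 0.090). Imprinted growth genes gave 5 rises and 3 falls among 12. MEST (2.76 ± 0.41) and IGF2R (0.84 ± 0.11) rose, MEG3 rose from 182–402 to 388–778 CPM with overlapping groups, and PEG10 fell from 522–818 to 164–289.9 CPM (−1.40 ± 0.17). H19 was at 19.2, 19.6, 5.87, 6.95 and 6.62 CPM in controls and 9.52, 1.16, 0.166, 0.278 and 0.490 at 7 d (−2.43 ± 0.86, adjusted p 0.021), where replicate 1 overlaps the controls.

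Matrix and immune genes were mixed. Collagens rose in 9 of 22 cases and fell in 5, with COL6A5 (2.56 ± 0.34), COL3A1 (2.23 ± 0.39) and COL13A1 (1.80 ± 0.36) up and COL1A1 (−1.34 ± 0.22), COL18A1 (−0.83 ± 0.19) and COL21A1 (−0.81 ± 0.28) down. Of 23 laminins and integrins 8 rose and 3 fell, with 5 falls without 7 d replicate 1 or control replicate 2 and 7 within replicates 3 to 5. ITGA1 was at 1230, 816, 231, 459.5 and 607 CPM in the 7 d replicates against 176–238 in controls (1.75 ± 0.33), ITGA3 rose by 3.04 ± 0.26 and LAMB2 by 1.61 ± 0.20, and ITGB5 fell from 135, 126, 84.7, 82.5 and 92.5 CPM to 41.3, 13.7, 8.22, 13.4 and 14.96 (−2.52 ± 0.36), with ITGB8 (−1.14 ± 0.24). HLA and interferon genes fell in 11 of 30 cases and rose in 5: OAS3 (197–236 to 28.9–50.6 CPM, −2.38 ± 0.13), OAS1 (−2.21 ± 0.22) and USP18 (−2.42 ± 0.25) fell, and SAMD9 (1.46 ± 0.33), STAT2 (1.37 ± 0.17) and IRF7 (0.95 ± 0.38) rose.

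Chromatin regulators gave 7 rises and 12 falls among 39 polycomb and DNA methylation genes. EZH2, the polycomb methyltransferase, went from 88.8, 90.2, 86.4, 89.7 and 88.4 CPM to 26.6, 12.3, 10.4, 22.3 and 19.8 (−2.29 ± 0.19), UHRF1, which maintains DNA methylation in S phase, from 232–249.6 to 21.6–96.1 (−2.22 ± 0.33), and the de novo methyltransferase DNMT3B from 19.1–29.2 to 4.82–6.26 (−2.08 ± 0.13). ZBTB4 (1.22 ± 0.090), ZBTB38 (1.126 ± 0.16) and PCGF5 (1.04 ± 0.20) rose. Of 18 deacetylases 3 rose, HDAC11 (1.42 ± 0.22), HDAC10 (1.04 ± 0.15) and SIRT4 (0.51 ± 0.20), and 3 fell, HDAC9 (−1.42 ± 0.14), SIRT1 (−0.67 ± 0.081) and HDAC1 (−0.54 ± 0.080).

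Changes were also ranked by the difference of mean CPM, which favours abundant genes. The 8 largest gains of mean CPM were in EEF2, CHGB, CCND1, EEF1A1, RGS5, CHGA, SCG2 and APP. EEF2, the translocase of translation elongation, went from 3973, 3611, 3562, 3744 and 3805 CPM to 5960, 7609, 9520, 6980 and 6760 (0.98 ± 0.096) and EEF1A1 from 5187–5713 to 6434–9708 (0.51 ± 0.088), the latter so near the fold limit that 4 alternatives do not call it. RGS5, a regulator of G protein signalling, rose from 2702, 2928, 2571, 2491 and 2608 to 5541, 4614, 3699, 5114 and 5118 (0.86 ± 0.097), and APP, the amyloid precursor, from 1269, 1211, 1117, 1139 and 1170 to 2388, 2821, 2524, 2074 and 2202 (1.02 ± 0.071). The 8 largest losses were in ACTB, TUBA1B, MYCN, GAPDH, NCL, PTMA, HNRNPA2B1 and NPM1. ACTB, beta actin, went from 4299, 4461, 4439, 4317 and 4488 CPM to 2559, 1531, 1449, 2072 and 1977 (−1.199 ± 0.12) and GAPDH from 3642–3955 to 2428–2764 (−0.56 ± 0.052), so neither common reference gene was level. The nucleolar proteins NCL (2103–2332 to 846–1161 CPM, −1.06 ± 0.072) and NPM1 (1769–2024 to 896–1113, −0.91 ± 0.062) and prothymosin PTMA (−1.16 ± 0.074) also fell from 24 h to 7 d. TUBA1B, EEF1A1, PTMA, NPM1, GAPDH, ACTB, HNRNPA2B1 and the ribosomal proteins have near-identical copies, so their values are uncertain. So are those of 24 named genes with over 10% of their exon bases under a gene of the opposite strand. Among them are IDUA, ITPR3, CBR3, CCNE2, CCND1, CDK4, FOXM1, TYMS, HNRNPA2B1, CDKN2A, MXD3 and IGFBP7. The others are PLAU, TUBB6, VAMP1, SLC18A2, MBNL1, RFNG, MEST, COL18A1, EEF2KMT, ATP5F1E, BBS1 and ACTA2.

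Ribosome biogenesis and the ribosomal proteins parted. Of 69 nucleolar biogenesis genes 48 fell and 0 rose (median −0.67). Their summed CPM was 12060–12510 in controls, 11220–11850 at 24 h and 7499, 6206, 7298, 7690 and 7409 at 7 d, so most of the fall came after 24 h, when 45 of 69 fell (14.4% of all genes). FBL, fibrillarin, went from 380.4, 342, 307, 315 and 320 CPM to 147, 96.9, 108, 128 and 112 (−1.49 ± 0.096), and UTP20 (−1.36 ± 0.11) and RRP9 (−1.22 ± 0.079) of the small subunit processome fell. Cytosolic ribosomal proteins gave 4 rises and 1 fall among 77, with RPL37 (0.97 ± 0.14), RPL13A (0.68 ± 0.094) and RPL3 (0.66 ± 0.10) up and RPL17 (−0.68 ± 0.23, about 2 CPM) down. Under library size alone, 7 were higher. Their summed CPM was 43520–46510 in controls, 50130–55360 at 24 h and 44500, 47260, 57470, 47950 and 46930 at 7 d, where replicate 3 stands alone.

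Other growth lists had more falls than rises. The proteasome fell in 29 of 44 cases with 0 rises (median −0.62; summed CPM 6749–7306 to 4002–5292), led by PSMC3 (−1.31 ± 0.097), PSMG1 (−1.23 ± 0.11) and PSMB6 (−1.22 ± 0.094). The hnRNP and SR splicing factors fell in 25 of 36 cases with 1 rise, SRSF12 (0.90 ± 0.11). HNRNPD went from 636, 579, 582, 639 and 599 CPM to 250, 118, 152, 219.6 and 202 (−1.69 ± 0.15), SRSF1 fell by 1.57 ± 0.16, SRSF7 fell by 1.53 ± 0.17 and HNRNPA2B1 fell by 1.12 ± 0.096. Translation factors and genes that act on them, such as EIF4EBP1 and EEF2KMT, fell in 24 of 63 cases and rose in 8. EIF5A (−0.99 ± 0.12), EIF4EBP1 (−1.02 ± 0.11) and EEF2KMT (−1.45 ± 0.11) fell. EIF4A2 (249.9–301 to 449–777 CPM, 1.15 ± 0.11) and EIF4E3 (1.05 ± 0.11) rose beside EEF2. Of 22 genes of aminoacyl-tRNA synthetases and their complex 9 fell, and WARS1 rose (0.66 ± 0.095). FARSB (−1.02 ± 0.10), AIMP1, a scaffold of the complex (−0.86 ± 0.058), and IARS1 (−0.82 ± 0.098) led the falls. Chaperones fell in 13 of 30 cases and rose in 2, with HSPD1 (−0.88 ± 0.10), HSPA14 (−1.49 ± 0.17) and HSPA2 (−1.07 ± 0.085) down and CCT6B up (1.87 ± 0.28).

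Metabolic lists fell in part. Mitochondrial ribosomal proteins fell in 41 of 76 cases with 0 rises (median −0.54) and respiratory chain subunits in 29 of 78 with 3 rises (−0.42). MRPL58 (−1.15 ± 0.12), MRPL23 (41.3–42.9 to 18.3, 7.58, 7.35, 13.8 and 12.1 CPM), MRPL11 (−1.64 ± 0.098) and, in the chain, NDUFA6 (−1.31 ± 0.088), NDUFB6 (−1.10 ± 0.077) and NDUFS6 (−1.01 ± 0.11) led the falls, and ATP5F1E (2.07 ± 0.16), NDUFC2 (1.28 ± 0.11) and COX7A2L (0.60 ± 0.062) rose. Glycolysis fell in 14 of 26 cases and rose in 2 (−0.58): the phosphofructokinase PFKP went from 125, 97.6, 97.8, 104 and 97.1 CPM to 32.2, 31.4, 33.1, 34.4 and 29.2 (−1.70 ± 0.079), hexokinase HK2 from 80.5–120 to 29.2–57.3 (−1.28 ± 0.20), PDK1 fell by 1.53 ± 0.24, and ENO3 (1.47 ± 0.18) and PFKFB2 (1.201 ± 0.18) rose. Serine, one-carbon and ATF4 targets gave 14 falls and 5 rises among 34, with SHMT1 (−1.67 ± 0.11) and ALDH1L1 (−1.78 ± 0.35) down and VLDLR (19.6–33.5 to 77.5–114 CPM, 1.86 ± 0.16), CHAC1 (1.75 ± 0.19) and ASNS (0.98 ± 0.23) up.

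Cholesterol and fatty acid synthesis fell in 22 of 33 cases and rose in 1 (median −0.67), and this list depended on the replicates. Its summed CPM was 10250, 9778, 8500, 8767 and 8895 in controls and 9843, 6964, 6421, 7403 and 7839 at 7 d, so replicate 1 lies within the range of the controls. Within replicates 1 and 2 only 9 genes were called lower. HMGCS1, of the mevalonate pathway, was at 381, 363, 276, 289 and 296 CPM in controls and 221, 91.8, 70.3, 134 and 138 at 7 d (−1.29 ± 0.24), FADS1 fell by 1.31 ± 0.12 and INSIG1 fell by 1.18 ± 0.31 with overlapping groups, and TM7SF2 rose (1.52 ± 0.13).

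Genes of degradative organelles rose more often than they fell. Lysosome and V-ATPase genes rose in 24 of 58 cases and fell in 7 (median 0.40), and summed CPM went from 6368–6909 in controls to 8693–9529 at 7 d. ATP6V0A1, a neuronal V-ATPase subunit, was at 98.1, 90.6, 95.7, 88.6 and 96.1 CPM in controls and 230.5, 267, 235, 219.7 and 233 at 7 d (1.34 ± 0.053), while ATP6V0A2, its broadly expressed relative, fell from 68.8–76.6 to 34.6–43.0 (−0.89 ± 0.062). NPC2 (1.30 ± 0.24) and CTSO (1.70 ± 0.42) rose at low levels and CTSH (−1.37 ± 0.24) and GUSB (−1.01 ± 0.097) fell. Autophagy genes rose in 15 of 40 cases with 1 fall. GABARAPL1, an ATG8 family protein, was at 12.04, 12.04, 13.2, 15.2 and 13.4 CPM in controls, 20.8–23.9 at 24 h and 65.3, 69.7, 58.0, 61.4 and 65.1 at 7 d (2.28 ± 0.074, adjusted p 1.7e-12), the receptor OPTN rose by 2.21 ± 0.097 and the kinase ULK1 by 1.40 ± 0.061, and ATG3 fell by 0.83 ± 0.090. Primary cilium genes were balanced at 9 rises and 9 falls of 53; BBS12 (1.59 ± 0.12), BBS1 (1.202 ± 0.11) and BBS2 (0.95 ± 0.11) rose, and the Hedgehog genes SMO (−2.24 ± 0.19) and GLI2 (40.3–46.5 to 18.0–20.3 CPM, −1.17 ± 0.058) fell with DYNC2I2 (−1.72 ± 0.13).

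**Figure D4:**
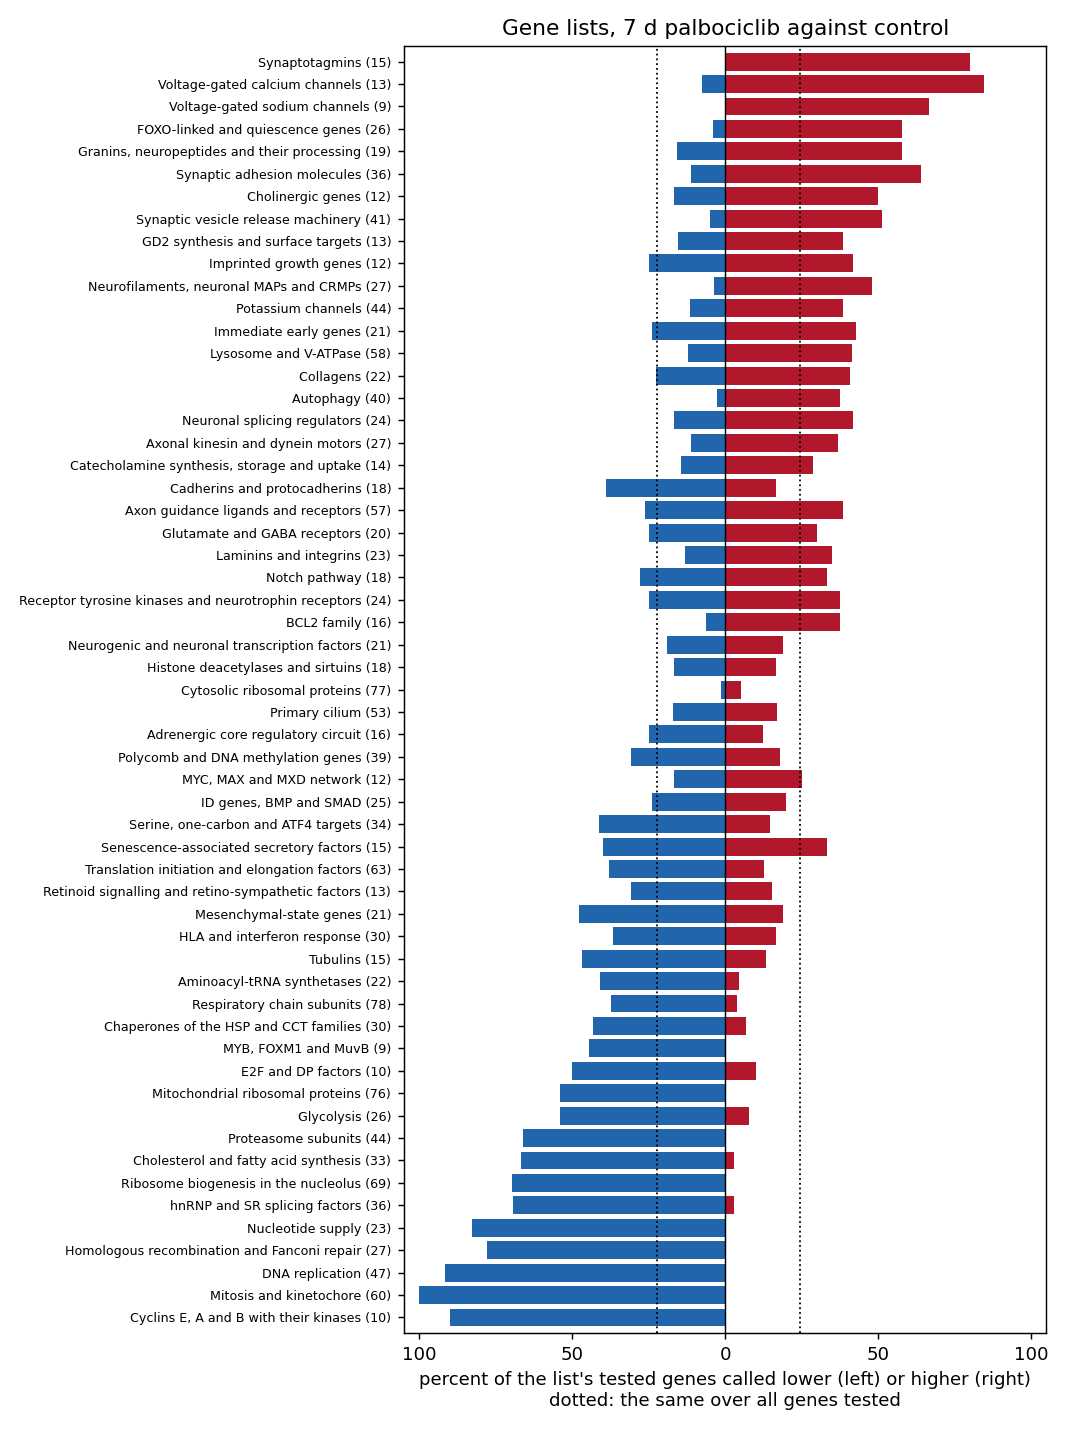
Percent of the tested genes of each list shown (number tested in parentheses) called lower (blue, left) or higher (red, right) at 7 d against control, ordered by the list's median log2 fold change; dotted lines mark 22.3% and 24.5% of all genes tested. Cell division and growth lists lie to the left and synaptic and channel lists to the right.

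Finally, the late response was compared with those of IMR-32 and SH-SY5Y, in a fit of all 45 libraries. A gene counts where its change at 7 d differs from the 5 d change of both other lines on the same side, by an adjusted p under 0.05 and more than 0.5 each. This held for 1478 of 16282 genes (9.08%); the lines were also treated for unequal times, 7 and 5 days, and these cannot be separated. The genes below were named for their change in SK-N-BE(2)C, which favours a difference, so their values are a description. NPTX1 stood at −2.71 in IMR-32 and −3.43 in SH-SY5Y, against 6.21 here. MYCN, lower by 0.71 here, stood at 0.28 and 0.29. ZCCHC12 (2.13 and 1.75), SHC2 (1.196 and 1.40), TP53INP1 (1.44 and 1.26), CACNG7 (0.61 and 1.202) and RAB6B (1.02 and 1.56) had smaller positive values there. OLFML2B (−0.27 and −0.36), EGR1 (0.36 and 0.39), SSTR2 (−0.70 and −0.36), ZEB1 (−0.02 and 0.24) and FN1 (−1.89 and −1.24) had no rise of this size there. Among the falls CSPG4 (−0.94 and −1.03), NXPH2 (−2.01 and −1.81), E2F7 (−3.14 and −2.93), CNTNAP2 (−0.11 and −0.76) and NRP2 (−0.56 and −0.83) were less deep there. STMN4, PIRT and PLA2G4C among the rises, and E2F8, HAS2, MT2A, FLT4, AURKB, CCNE2, SLC8A1, MKI67 and CCNA2 among the falls, did not meet this rule, which does not show that they respond alike. SCG2, which also met the rule, had a smaller rise here (1.41) than in IMR-32 (2.28) and SH-SY5Y (2.09).

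**Figure D5:**
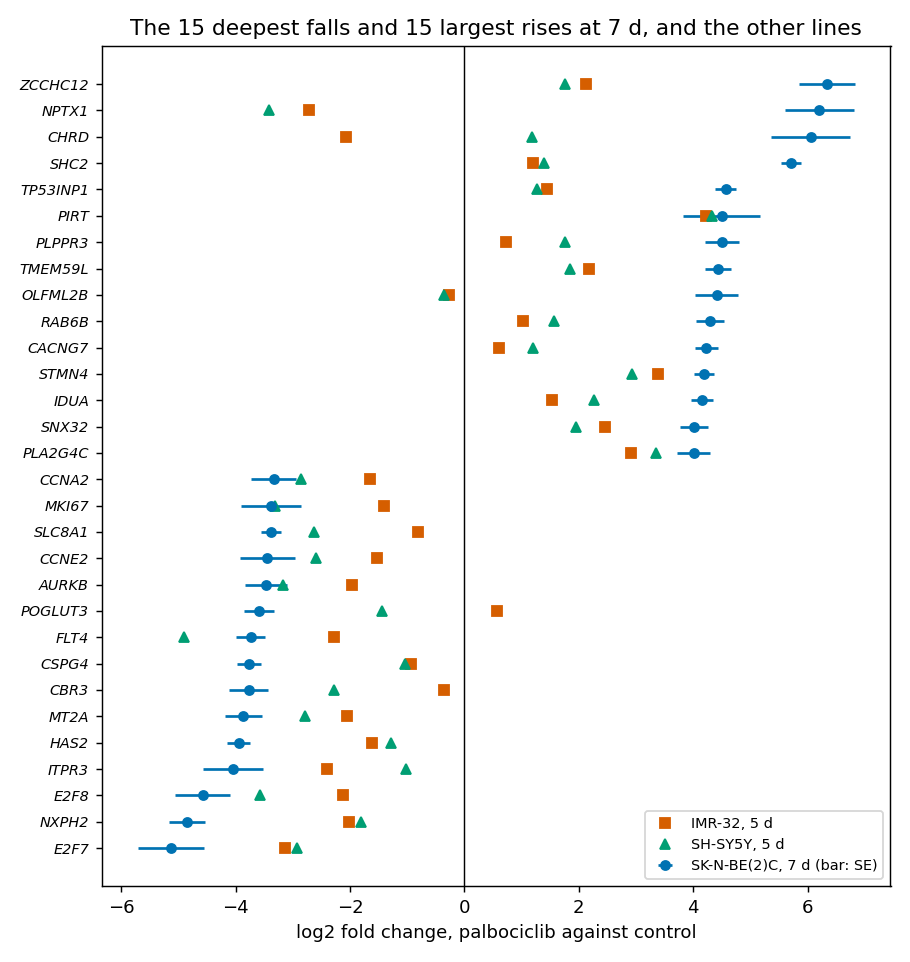
Log2 fold change against control (x) of the 15 largest rises and 15 deepest falls at 7 d in SK-N-BE(2)C (circles, bars show SE) beside the 5 d values in IMR-32 (squares) and SH-SY5Y (triangles). NPTX1 lies at 6.21 here and at −2.71 and −3.43 in the other lines, while PIRT lies between 4.22 and 4.50 in all 3.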

How the data were processed

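Polyadenylated RNA was sequenced as paired ends from directional libraries. Per the submitters' processing notes, reads were trimmed with Trim Galore 0.6.4 and aligned to hg19 with STAR 2.6.1d (the study's methods list another release of STAR), and the authors deposited whole-number counts per gene, which were used here. The strand setting of the counting was "not given in the sources used here". Deposited CPM tables and the authors' tables of fold changes and p-values from DESeq2 1.32.0 were not used. Groups were taken from the sample labels.

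Genes were filtered with filterByExpr (minimum count 10, minimum total 15) and scaled by TMM, and edgeR's quasi-likelihood test (edgeR 4.0.16, limma 3.58.1, R 4.3.3) with robust dispersions was fitted to the 15 SK-N-BE(2)C libraries with 1 mean a group. The fit of all 45 libraries gave the differences between lines. P-values were adjusted by Benjamini-Hochberg across the whole table. Calls needed an adjusted value under 0.05 with a log2 fold change over 0.5 in size. Log2 CPM had a prior count of 2. The scripts were first tested on data with known changes.

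Named genes were the 15 largest rises and 15 deepest falls (called, groups not overlapping, at least 5 CPM, protein-coding), the 8 largest gains and losses of mean CPM, up to 3 genes a list and direction (at least 1 CPM), and genes named for their role; some genes are not reported here. The comparison and the gene lists were chosen with earlier results of these data known. Replicate numbers were not used as pairs. Alternatives were other scalings, no filter, other fold limits, DESeq2 1.42.0, a replicate block and leaving out each control and 7 d library. Figures were drawn with matplotlib 3.10.9.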

Additional observations from a re-analysis of the deposited data

Results flagged for a closer look

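A library apart from the other 4 of its group was looked for in 120 groups of 5 with Dixon's test, which chance flags in about 1 of 20, and found in 8. At 7 d, replicate 1 was low in ZCCHC12 (13.3 CPM) and TP53INP1 (53.5 CPM), replicate 2 was low in MYCN (1810 CPM), and replicate 3 was high in the summed cytosolic ribosomal proteins (57500 CPM). Among controls, replicate 1 stood apart in PLPPR3 (3.12 CPM) and NXPH2 (7.19 CPM), replicate 4 in PLA2G4C (0.755 CPM) and replicate 2 in the summed proteasome subunits (7310 CPM).

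The change at 7 d differed from the 5 d change of both other lines, tested as a difference in the fit of 45 libraries, for 12 of the 15 largest rises, against 9.08% of all genes. These genes were chosen for their size in SK-N-BE(2)C, which favours a difference, so the count is a description. The difference from IMR-32 on the log2 scale was 8.91 for NPTX1, 8.10 for CHRD, 4.67 for OLFML2B, 4.51 for SHC2, 4.20 for ZCCHC12, 3.76 for PLPPR3, 3.61 for CACNG7, 3.25 for RAB6B, 3.12 for TP53INP1, 2.61 for IDUA, 2.24 for TMEM59L and 1.54 for SNX32. Among the deepest falls it was −4.18 for POGLUT3, −3.42 for CBR3, −2.85 for NXPH2, −2.84 for CSPG4, −2.01 for E2F7 and −1.66 for ITPR3. Of the genes with the largest gains and losses of abundance, SCG2 (−0.88) and MYCN (−1.01) differed from both lines. Days of treatment and lines cannot be told apart in these differences.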

How the results depend on the processing

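With no limit on the fold change 9993 genes were called at 7 d against control, 5029 of them lower, and 8335 against 24 h. With a log2 limit of 1 the counts were 3108, of which 1824 higher and 1284 lower, 1652 against 24 h, and 652 for genes that differed from both other lines. Leaving out each control and 7 d library of SK-N-BE(2)C in turn gave 6361 to 7021 called genes, 3249 to 3630 higher and 3072 to 3391 lower, 4097 to 4977 against 24 h and 1278 to 1796 for the lines. DESeq2 called 6582, RLE size factors 6568, library size alone 6612, no filter 7598, the 10 libraries alone 6384, and replicates 4 and 5 summed 6626. After seeing the data, replicates 1 and 2 alone (5717) and 3 to 5 alone (6646) were added. Deviations of control and 7 d libraries of the same number correlated at 0.354, 0.14, 0.229, 0.0999 and 0.0966, not all over the 0.1 required for pairing. With the replicate block, 6703 were called, 3500 higher and 3203 lower, 4652 against 24 h and 1725 for the lines; 2 of 5 controls correlated best with their own number. TUBB3, which was not called, had the opposite sign in replicates 1 and 2 alone (−0.040); the cause was not tested. Over these alternatives other than the fold limits, which were applied to the counts of genes alone, values of named genes kept their side of the threshold in 6104 cases, lost it in 117 and gained it in 5. Of the losses, 32 were in replicates 1 and 2 alone.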
